A study of Mus musculus with 288 samples.

Results

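The transcriptome of mouse muscle was compared between day and night after intermittent hypoxia (IH), the repeated fall and return of oxygen that mimics sleep apnea. The comparison used the 24 muscle libraries of mice given IH, out of 288 libraries in the series, with the 12 libraries of 1:30, 4:30, 7:30 and 10:30 taken as day and the 12 of 13:30, 16:30, 19:30 and 22:30 as night, and it covered the 9000 of 35904 genes that had a mean of at least 5 TPM, a level scaled for gene length and to the same total in each library. These were wild type C57BL/6J males, 8 weeks old, that cycled between 21% and 8% O2 in their inactive phase for 7 days and then spent 2 days in constant darkness at normal oxygen. Tissue was taken on the second of those days, so neither light nor hypoxia was present at collection. The event from which the labels count their hours is not given in the sources used here, and day and night are names for these hours. The 24 muscle libraries of mice kept in normoxia throughout, with the same strain, age, darkness and time points, served for comparison. Each library came from 1 mouse, with 3 mice at each of 8 time points and treatments, and no mouse was sampled at more than 1 time. Which muscle was taken is not given in the sources used here.

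Nearly every cell keeps a daily clock. In its core loop CLOCK and BMAL1 (encoded by Arntl) bind E-box elements and switch on the Per, Cry and Nr1d genes, whose proteins then switch the loop off again, while REV-ERB and ROR receptors compete to set the rhythm of Arntl, and DBP, TEF, HLF and NFIL3 act on D-box elements of further genes. Skeletal muscle is a large store of glycogen and a main site of glucose uptake after feeding, and mice feed mostly at night. Because the transcripts of a bulk sample are counted together, fewer cells of a type and less RNA per cell cannot be told apart in any of the values below.

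Defining genes of skeletal muscle were abundant in every library: the summed level of 7 of them, among them Acta1 and Ckm, ranged from 83150 to 97100 TPM by day and from 55980 to 90540 TPM at night. One library stood apart before any comparison, replicate 2 of 16:30, whose median correlation with the other IH libraries was 0.941 against 0.968 to 0.983 for the rest. It held the lowest muscle sum, 55980 TPM, and the highest sum of 5 fat cell genes, 14580 TPM, against a range of 2134 to 7806 TPM by day and a night median of 3830 TPM; its 4 macrophage and leukocyte genes summed to 810.2 TPM against at most 404.6 TPM by day. None of the fat or leukocyte markers passed the day and night test, and the fat marker with the lowest adjusted p was Lep, which encodes leptin. Lep was 2.38-fold higher at night, a log2 difference of 1.252 ± 0.31 with an adjusted p of 0.0756, and all 12 night values were above the day median. Lep and Cidec, another fat cell gene, passed the test of a 24-hour cosine with adjusted p of 0.00607 and 0.0464. Red cell genes summed to 3157 to 9892 TPM by day and 3255 to 19700 TPM at night, and liver, kidney and lung genes reached at most 94.3, 41.0 and 197.6 TPM in a library. Values without the library that stood apart are given where they differ in a call, and the part of these markers in the results was not tested.

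Few genes differed between the day and the night group, and the largest differences were those of Nr1d1, lower at night, and of Angptl8, Ppp1r3b and G0s2, higher at night. In a linear model fitted by limma to log2 values, 27 of 9000 genes, 0.300% of those tested, passed an adjusted p of 0.05, where adjusted p is the Benjamini-Hochberg value over all 9000 genes. Of these, 17 genes (0.189% of those tested) were higher at night and 10 (0.111%) were higher by day. A difference of at least 1.5-fold was also present in 13 of them (0.144%), 11 higher at night and 2 higher by day. Over all genes the median difference, night minus day, was 0.006 on the log2 scale and the median size of a difference was 0.064, and before adjustment 1054 genes were at a p of 0.05 or less. Nr1d1 was the single gene of the 9000 (0.0111%) whose lowest value in one group lay above the highest in the other.

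The number of genes called depended strongly on which time points were kept. Without the libraries of 1:30 it was 97, without 10:30 it was 98 and without 13:30 it was 67, whereas without 4:30 it was 4, without 7:30 it was 8 and without 16:30 it was 13. Without 19:30 it was 20 and without 22:30 it was 40. Leaving out replicate 1, 2 or 3 of every time point gave 1, 0 and 9 genes, so that every call was lost without replicate 2 and all but that of Nr1d1 without replicate 1. The losses given below for single time points come in addition to these. Nr1d1, G0s2, Tbc1d1 and H2aw passed in at least 20 of 22 alternative analyses, and the other 23 genes missed the threshold in 3 to 15. Without the single library that stood apart 29 genes were called, 20 higher at night and 9 by day, and Iffo1, Hexim1, Lsmem1, Id3, Banp and Pim3 no longer passed.

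Nr1d1 encodes REV-ERB alpha, the nuclear receptor that represses Arntl, and it had the lowest adjusted p of all genes. By day the lowest, median and highest of its 12 values were 31.3, 81.4 and 131 TPM, and at night they were 5.76, 19.52 and 27.9 TPM. Every day library was above every night library. Its level was 4.91-fold lower at night, a log2 difference of -2.30 ± 0.29 (SE) with an adjusted p of 0.000234. Over the day the level was highest at 4:30, 123 ± 9.70 TPM (SD, n = 3), and lowest at 16:30, 6.25 ± 0.429 TPM, and by 22:30 it was back at 21.8 ± 3.93 TPM. The difference passed the threshold in 21 of 22 alternative analyses and reached an adjusted p of 0.0623 without replicate 2. Nr1d1 lies at chr11:98767932-98775377 and its 3′ end overlaps Thra on the opposite strand, which differed by -0.23 with an adjusted p of 0.202.

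Cry1, whose protein inhibits CLOCK and BMAL1, was the other core clock gene that passed. Its lowest, median and highest values were 4.45, 5.97 and 10.8 TPM by day and 7.45, 10.2 and 13.49 TPM at night. All 12 night values were above the day median although the groups overlapped, because the first hours of the day still had high levels: 9.23 ± 1.34 TPM at 1:30 against 5.20 ± 0.465 TPM at 7:30. The difference was 0.64 ± 0.11 on the log2 scale with an adjusted p of 0.00411, and 0.331, 0.103 and 0.0608 without replicate 1, replicate 2 and the libraries of 4:30. Nfil3, a repressor at D-box elements, had 8.07, 15.9 and 41.6 TPM by day and 21.6, 32.0 and 54.5 TPM at night. All its night values were above the day median too, and its difference of 0.94 ± 0.23 missed the threshold with an adjusted p of 0.0756.

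The other 16 genes of the clock lists did not pass the day and night test, but most of them varied strongly over the day. A cosine with a period of 24 hours was fitted to each gene in the same libraries, and 748 of 9000 genes, 8.31%, passed its test. Of the 16 clock genes that reached the minimum of 5 TPM, 13 passed it, and among those that did not were Bhlhe40 and Rora, with adjusted p of 0.0536 and 0.108. Arntl had the lowest adjusted p of the 9000 genes in this test, 4.36e-14, with an amplitude (the difference from the daily mean to the peak) of 1.70 ± 0.069 on the log2 scale and a peak at 22.8 h. Its level went from 1.62 ± 0.280 TPM at 10:30 to 20.2 ± 1.81 TPM at 22:30. Such a peak close to the change from night to day put high values in both groups: Arntl had 1.32, 5.50 and 18.9 TPM by day and 1.83, 9.17 and 24.6 TPM at night, and its day and night difference was 0.655 ± 0.47 with an adjusted p of 0.634.

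Among the positive factors, Clock, the partner of BMAL1, peaked at 23.3 h with an amplitude of 0.52 ± 0.054. Npas2, which can stand in for Clock, was below the minimum of 5 TPM and was fitted with a minimum of 1 TPM, where it peaked at 23.3 h with an amplitude of 1.37 ± 0.095. The Per genes encode the PERIOD repressors. Per1 and Per3 peaked at 10.8 and 10.7 h with amplitudes of 1.07 ± 0.14 and 1.18 ± 0.060, and Per2, also fitted with the lower minimum, at 12.6 h with 1.30 ± 0.065. These times lay close to the boundary between the day and night groups, and Per2 went from 1.17 ± 0.325 TPM at 1:30 to 9.43 ± 0.914 TPM at 13:30.

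The remaining repressors and output factors peaked mostly between 8 and 12 h. Ciart, an inhibitor of CLOCK and BMAL1 fitted with the lower minimum, peaked at 9.4 h with an amplitude of 1.39 ± 0.14, Bhlhe41, a repressor that competes at E-box elements, at 8.8 h with 0.54 ± 0.072, and Nr1d2, which encodes REV-ERB beta, at 9.2 h with 0.86 ± 0.040. Cry2 peaked at 11.6 h with an amplitude of 0.325 ± 0.049, the smallest of the 13 clock genes that passed. Dbp had the largest amplitude of the clock genes, 1.97 ± 0.10, peaking at 9.8 h, and its level ranged from 11.9 ± 0.946 TPM at 22:30 to 176 ± 18.8 TPM at 7:30. Tef and Hlf, the relatives of Dbp, peaked at 10.1 and 11.3 h with amplitudes of 0.52 ± 0.042 and 0.76 ± 0.048, and Nfil3 at 20.4 h with 0.97 ± 0.084. Of the clock genes fitted, Nr1d1 and Cry1, with peaks at 5.3 and 19.8 h, were the 2 that passed both tests.

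**Figure D1:**
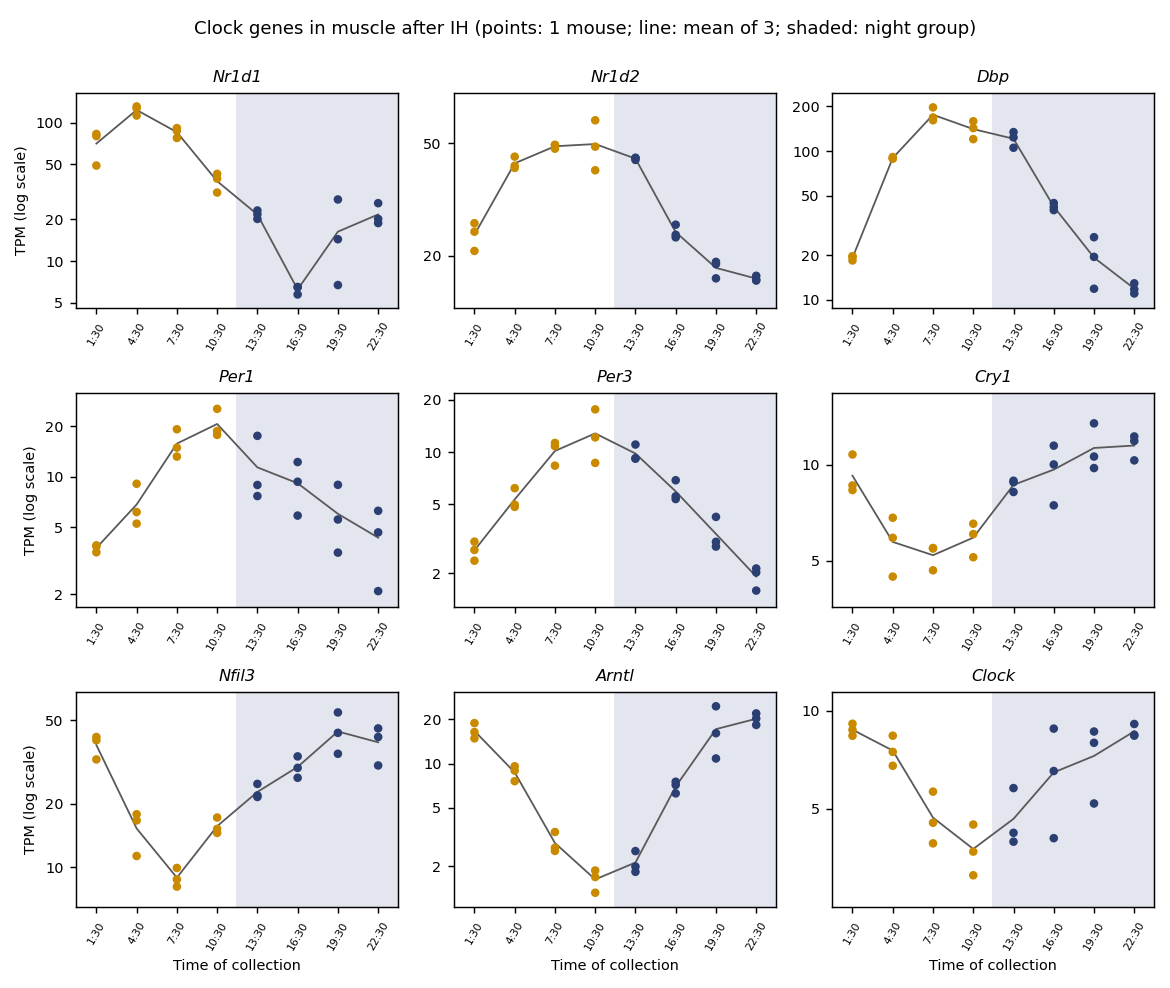
Levels of 9 clock genes in muscle after IH, in TPM on a log axis, against the time of collection, with 1 point per mouse, a line through the mean of 3 mice and the night group shaded. Nr1d1 separates fully between the groups, with 31.3 TPM as its lowest day value and 27.9 TPM as its highest night value, whereas Arntl and Clock are high on both sides of the change from night to day and low around 10:30.

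At 19:30 the 3 mice differed in these genes. Nr1d1 was at 27.9, 14.4 and 6.73 TPM in replicates 1, 2 and 3, Arntl at 24.6, 16.1 and 10.8 TPM, and Dbp at 11.9, 19.45 and 26.4 TPM. Replicate 1 was thus highest for Nr1d1 and Arntl and lowest for Dbp, and replicate 3 was the reverse.

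The 250 bases before the start of the genes were searched for the core letters of 3 clock elements, in RefSeq sequence of GRCm38.p6 and on both strands: the E-box CACGTG, the D-box TTATGTAA and the REV-ERB and ROR element TAGGTCA. Of the 27 genes called, 20 had an entry, and 3 of them held an E-box, Cry1, Ppp1r3c and Irs2, while 0 held either of the other motifs. Of the 19 clock genes 16 had an entry; 5 of them held an E-box (Bhlhe41, Ciart, Cry1, Per1 and Tef), Per3 held D-boxes and Nfil3 the ROR element. The E-box was present in 6.02% of all 32851 promoters, the D-box in 0.819% and the ROR element in 2.23%. Of the 7079 tested genes with an entry, 10.4%, 0.551% and 1.91% held these motifs before any of their starts. The 3 called genes with an E-box and the clock genes with each of the other motifs are shown because they span the day: Irs2 and Per3 were high by day or at its end, and Cry1, Ppp1r3c and Nfil3 at night. Each runs 5′ to 3′ along the strand of its gene and ends at the base before the start, and capitals mark the motif. Cry1 is at chr10:85185055-85185304, Ppp1r3c at chr19:36736605-36736854, Irs2 at chr8:11008930-11009179, Per3 at chr4:151044666-151044915 and Nfil3 at chr13:52981040-52981289, all on the minus strand.
Cry1: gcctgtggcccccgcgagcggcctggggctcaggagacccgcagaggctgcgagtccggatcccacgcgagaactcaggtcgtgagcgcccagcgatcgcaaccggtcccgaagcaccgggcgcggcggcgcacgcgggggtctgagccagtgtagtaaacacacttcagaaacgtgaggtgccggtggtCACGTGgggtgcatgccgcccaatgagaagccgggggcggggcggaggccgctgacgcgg
Ppp1r3c: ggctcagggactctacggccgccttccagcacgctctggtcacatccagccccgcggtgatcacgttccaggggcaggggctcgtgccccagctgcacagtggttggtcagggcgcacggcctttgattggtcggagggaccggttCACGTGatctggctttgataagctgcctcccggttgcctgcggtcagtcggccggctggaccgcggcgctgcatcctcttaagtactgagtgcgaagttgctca
Irs2: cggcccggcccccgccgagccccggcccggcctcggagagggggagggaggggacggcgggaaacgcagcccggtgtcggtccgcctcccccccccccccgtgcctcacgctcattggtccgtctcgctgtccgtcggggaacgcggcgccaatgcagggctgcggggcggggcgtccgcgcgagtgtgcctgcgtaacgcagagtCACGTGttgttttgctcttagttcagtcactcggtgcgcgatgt
Per3: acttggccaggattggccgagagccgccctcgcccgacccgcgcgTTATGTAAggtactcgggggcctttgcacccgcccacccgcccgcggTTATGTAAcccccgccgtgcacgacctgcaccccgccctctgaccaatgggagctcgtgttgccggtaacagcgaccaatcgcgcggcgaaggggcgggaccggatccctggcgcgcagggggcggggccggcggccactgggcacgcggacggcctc
Nfil3: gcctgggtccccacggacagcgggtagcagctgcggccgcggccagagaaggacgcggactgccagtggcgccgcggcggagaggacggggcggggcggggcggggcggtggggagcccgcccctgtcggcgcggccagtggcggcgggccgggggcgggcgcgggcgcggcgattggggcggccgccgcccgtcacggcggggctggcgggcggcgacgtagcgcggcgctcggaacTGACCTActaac
The E-box began 60 bases before the start in Cry1, 104 in Ppp1r3c and 44 in Irs2, and the D-boxes of Per3 began 205 and 158 bases before it. In Nfil3 the element stood 12 bases before the start as its reverse complement, TGACCTA. The starts used are those of the RefSeq promoter table: in Nfil3 and Per3 they lie inside the span of the gene, which begins further upstream, and in the other genes at its end. A match describes these letters in this window and is not evidence of binding.

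The largest rises at night were those of Angptl8, Ppp1r3b and G0s2. Angptl8 encodes a secreted protein that inhibits lipoprotein lipase and is induced by feeding. By day its lowest, median and highest values were 1.91, 4.27 and 7.36 TPM, and at night they were 3.99, 28.4 and 87.2 TPM. Of the 12 night values 10 lay above the highest day value, and the level was 4.94-fold higher at night, with a log2 difference of 2.30 ± 0.41 and an adjusted p of 0.00843. The night values were not uniform: the mean was 41.0 ± 13.2 TPM (SD, n = 3) at 13:30, 60.5 ± 30.3 TPM at 16:30 and 9.95 ± 2.02 TPM at 19:30, and at 22:30 the mice had 3.99, 5.45 and 63.3 TPM. The call was lost without 4:30, 7:30 or 16:30, with adjusted p of 0.0684, 0.0817 and 0.0619. The gene lies within Dock6 on the opposite strand, which differed by -0.01 with an adjusted p of 0.96.

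G0s2 encodes the inhibitor of adipose triglyceride lipase, the enzyme that starts the breakdown of stored fat. It had 51.4, 88.3 and 147 TPM as its lowest, median and highest day values and 141, 203.5 and 540 TPM at night. A single night library fell below the highest day library. The level was 2.59-fold higher at night, a log2 difference of 1.38 ± 0.19 with an adjusted p of 0.000524, and the call was lost without replicate 1 or replicate 2, the highest adjusted p being 0.0639. Lamb3, which overlaps it on the opposite strand, differed by 0.05 with an adjusted p of 0.931. Both Angptl8 and G0s2 are also expressed by fat cells, and their highest values, 87.2 and 540 TPM, came from the library with the highest fat marker sum; without that library neither lost its call. The fat marker Lep was 2.38-fold higher at night as well, with an adjusted p of 0.0756, and the part of fat cells in these differences was not tested.

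Ppp1r3b and Ppp1r3c encode subunits that bring protein phosphatase 1 to glycogen and thereby activate glycogen synthase. Ppp1r3b had 1.98, 4.47 and 9.34 TPM by day and 4.57, 17.0 and 40.9 TPM at night, and all 12 night values were above the day median. Its difference was 1.60 ± 0.295, or 3.04-fold, with an adjusted p of 0.0119. Ppp1r3c was more abundant, with 45.6, 73.4 and 173 TPM by day and 88.8, 141 and 218 TPM at night. Again all night values were above the day median, but 1 day library, replicate 3 of 10:30, reached 173 TPM. Its difference was 0.97 ± 0.19, or 1.96-fold, with an adjusted p of 0.0144. Without 4:30, 7:30 or 16:30 the adjusted p was 0.0727, 0.13 and 0.0872 for Ppp1r3b and 0.185, 0.156 and 0.11 for Ppp1r3c, for which it was also 0.0686 without 19:30.

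Tbc1d1 encodes a Rab GTPase activating protein that holds back the glucose transporter GLUT4 until it is phosphorylated. It had 6.34, 8.03 and 12.4 TPM by day and 10.9, 14.2 and 25.0 TPM at night, and 9 of 12 night values lay above the highest day value. The difference was 0.77 ± 0.11, or 1.70-fold, with an adjusted p of 0.000524, and the call was lost without replicate 1 or replicate 2, at 0.0797 at the highest.

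Myod1, the transcription factor that sets muscle identity, was also higher at night. Its values were 8.88, 12.1 and 30.9 TPM by day and 16.2, 23.1 and 43.5 TPM at night. All night values were above the day median, and the overlap came from 1:30, where the mice had 19.47, 15.0 and 30.9 TPM. The difference was 0.86 ± 0.17, or 1.82-fold, with an adjusted p of 0.0162. It was 0.185, 0.142 and 0.055 without 4:30, 7:30 and 22:30.

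A gene of detoxification and one of the oxidative stress response were also higher at night. Gsta3, a glutathione transferase, had 7.88, 15.4 and 25.8 TPM by day and 15.5, 33.4 and 116 TPM at night, with a difference of 1.24 ± 0.22 and an adjusted p of 0.00843. Its mean was 68.3 ± 41.9 TPM at 16:30, where the highest value of 116 TPM belonged to the library that stood apart, and without 4:30 its adjusted p was 0.0684. Osgin1, induced by oxidative stress, had 7.33, 10.4 and 22.7 TPM by day and 13.2, 17.6 and 24.7 TPM at night, with a difference of 0.72 ± 0.14 and an adjusted p of 0.0144. All night values of both genes were above the day median, and the groups overlapped in each. Osgin1 lost its call without 4:30, 7:30 or 16:30, at 0.196, 0.0817 and 0.0851.

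Of the remaining night-high genes, Banp, a nuclear matrix protein, differed by 0.67 ± 0.15 with an adjusted p of 0.0455, and Ddit3, the transcription factor CHOP of the endoplasmic reticulum stress response, by 0.40 ± 0.085 with 0.0337. The 6 genes called that the naming rule did not reach, and that were named after their values had been seen, were all higher at night. Arrdc3, an arrestin-like protein, had a difference of 0.64 ± 0.12, Smad7, an inhibitor of TGF-beta signalling, 0.49 ± 0.093, Id3, an inhibitor of basic helix-loop-helix factors, 0.48 ± 0.11, H2aw, a histone H2A, 0.395 ± 0.060, Hexim1, an inhibitor of the elongation factor P-TEFb, 0.35 ± 0.075, and Mmaa, which serves cobalamin metabolism, 0.22 ± 0.045. H2aw had the most stable call of these, in 20 of 22 alternatives, with 9.14, 10.9 and 14.9 TPM by day and 12.4, 15.2 and 17.8 TPM at night. Without 4:30 all these genes but H2aw lost their call, with adjusted p from 0.0727 for Smad7 to 0.343 for Banp. The same genes lost it without 7:30, from 0.0817 for Smad7 to 0.264 for Banp, and all of them but Smad7 without further time points. With the replicate number of the labels as a block in the model, Id3 and Banp each narrowly missed the threshold, at an adjusted p of 0.051, and in 15 of 22 and 15 of 21 alternatives they were not called.

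Apart from Nr1d1, the genes higher by day differed by at most 1.51-fold, the value of Irs2. Irs2, the adaptor that carries the insulin signal to its kinases, had 4.00, 6.46 and 9.18 TPM by day and 2.86, 3.89 and 6.52 TPM at night. All 12 day values were above the night median, and 6 of them above the highest night value. The difference was -0.595 ± 0.12, 1.51-fold lower at night, with an adjusted p of 0.0268. Cpt1a, which moves long-chain fatty acids into mitochondria, had 5.61, 8.24 and 10.1 TPM by day and 3.62, 5.70 and 8.78 TPM at night. The difference was -0.43 ± 0.089 with an adjusted p of 0.0262, and the groups overlapped, with 11 of 12 day values above the night median. Both lost their call without 4:30 and without 7:30, where the adjusted p was 0.196 and 0.205 for Irs2 and 0.311 and 0.0817 for Cpt1a. Irs2 also lost it without 13:30 and 16:30, at 0.0573 and 0.204, and Cpt1a without 19:30 and 22:30, at 0.0839 and 0.0565. The related gene Cpt1b was far more abundant and was not called. Its time-point means ran from 65.6 TPM at 16:30 to 112.6 TPM at 4:30, against 5.41 TPM at 22:30 to 9.22 TPM at 4:30 for Cpt1a.

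Mybpc2, the myosin-binding protein of fast fibres, was among the abundant transcripts, with 930.4, 1225 and 1347 TPM by day and 654, 902 and 1137 TPM at night. All day values were above the night median, and 9 of 12 were above the highest night value. The difference was -0.39 ± 0.080 with an adjusted p of 0.0262, and 0.213, 0.142 and 0.0506 without 4:30, 7:30 and 22:30. Its lowest value, 654 TPM, was that of the library with the lowest muscle sum, and without that library it was still called.

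The other day-high genes named here differed by -0.52 to -0.25 on the log2 scale. Pim3, a serine/threonine kinase, differed by -0.52 ± 0.11, Lsmem1, a small membrane protein, by -0.495 ± 0.11, and Tns2, a tensin of focal adhesions, by -0.48 ± 0.10, each with an adjusted p of 0.0362. Reps1, which takes part in endocytosis, differed by -0.25 ± 0.048 with an adjusted p of 0.0144, and Iffo1, an intermediate filament family member, by -0.295 ± 0.063 with 0.0346. Without 4:30 the adjusted p of these 5 genes ran from 0.198 to 0.343, and without 16:30 from 0.11 to 0.204. Each also lost its call without further time points. Pim3, Tns2 and Iffo1 passed in 10 of 22 alternative analyses, and Lsmem1 and Reps1 in 12 of 22. Iffo1 overlaps the end of Gapdh on the opposite strand, which was at a mean of 3810 TPM and differed by -0.27 with an adjusted p of 0.135.

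**Figure D2:**
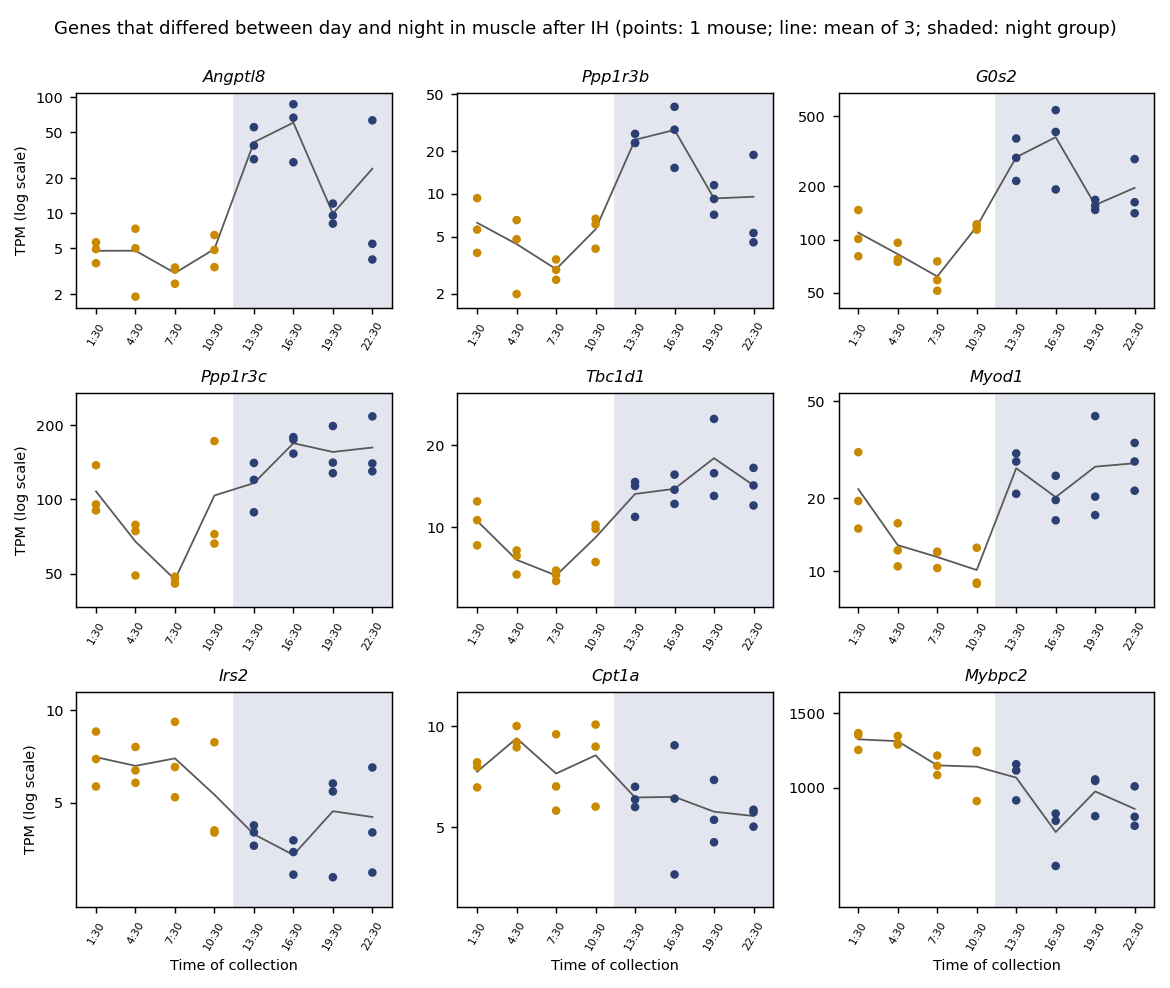
Levels of 9 genes called between day and night after IH, in TPM on a log axis, against the time of collection, with 1 point per mouse, a line through the mean of 3 mice and the night group shaded. Angptl8, Ppp1r3b and G0s2 are highest at 13:30 and 16:30, with means of 60.5, 28.1 and 380 TPM at 16:30, while Irs2, Cpt1a and Mybpc2 are higher by day.

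Across 31 gene lists with 312 tested genes, 8 lists had a called member, each a single gene, and 23 lists had none, beside 0.300% called among all genes tested; the other 19 of the 27 genes called were on no list. The lists with a member called were the clock repressors (Cry1), REV-ERB and ROR receptors (Nr1d1), glucose uptake and glycolysis (Tbc1d1), glycogen metabolism (Ppp1r3c), growth signalling (Irs2), endoplasmic reticulum chaperones (Ddit3), myogenic factors (Myod1) and fast fibre genes (Mybpc2). By the cosine test 63 of the 312 listed genes passed, spread over 28 lists, beside 8.31% of all genes tested. Of all 9000 genes tested, 4719 had a day and night difference above 0. Clock genes were put on the lists because they are known to be rhythmic. With 0.300% of all genes called, a list of 10 or 20 genes with 0 called is no result about the list.

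Beyond Tbc1d1 and Ppp1r3c no gene on the fuel lists was called between the groups. Cpt1a, of fatty acid use, and Ppp1r3b, of glycogen metabolism, were called but were on none of these lists. Among all genes tested 0.300% were called and 8.31% passed the cosine test, the shares to set beside the counts that follow. In glucose uptake and glycolysis 4 of 17 tested genes lay above 0, with a median difference of -0.075, and 4 passed the cosine test: Tbc1d1, Hk2, Pfkfb1 and Pfkfb3. Pfkfb3, which makes the activator of phosphofructokinase, peaked at 5.1 h with an amplitude of 0.76, and Hk2, the hexokinase of muscle, at 13.4 h with 0.24. In glycogen metabolism 7 of 8 genes were not called, with a median of -0.093. Pdk4, the kinase that shuts down pyruvate dehydrogenase, differed by -0.825 ± 0.32 with an adjusted p of 0.284, and Pdp1, the opposing phosphatase, by -0.41 ± 0.11 with 0.0985; of the pyruvate switch genes Pdp1 alone passed the cosine test. Of 19 fatty acid genes 0 were called and Ucp2 passed the cosine test, and of 12 lipid synthesis genes 0 passed either test although 9 lay above 0, with a median of 0.217. Lipid synthesis genes are also expressed by fat cells, whose 5 markers summed to 2134 to 7806 TPM by day and 2629 to 14580 TPM at night; their part in these values was not tested. Of 20 complex I subunits 19 were slightly above 0, with a median of 0.044, and 0 passed either test; 19 of 21 ribosomal protein genes lay above 0 with a median of 0.10, and 1 passed the cosine test.

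On the lists of stress and hormone response genes, Ddit3 alone passed the day and night test. Osgin1, called above, was not on these lists. All 18 heat shock genes had a difference above 0, with a median of 0.233. Over all 9000 genes 4719 lay above 0, with a median of 0.006. Of the 18 heat shock genes 0 passed and 7 passed the cosine test, which 8.31% of all genes tested passed. The heat shock gene with the lowest adjusted p was Hsp90aa1, a cytosolic chaperone, with 23.7, 39.8 and 80.2 TPM by day and 45.1, 57.8 and 128 TPM at night. All its night values were above the day median, and the difference was 0.59 ± 0.15 with an adjusted p of 0.0804. The largest differences on the list were those of Hspa1a and Hspa1b, 1.15 ± 0.32 and 1.08 ± 0.38, which are near-identical copies that reads may not tell apart and so are uncertain. Of 13 glucocorticoid targets 0 were called and 7 passed the cosine test, among them Tsc22d3 at 15.5 h, Glul at 15.0 h, Fkbp5 at 16.2 h and Cdkn1a at 21.2 h, with Klf9 and Sgk1 at 8.9 and 8.0 h. Fkbp5, a co-chaperone of the glucocorticoid receptor, had 15.2, 20.7 and 73.7 TPM by day and 25.2, 48.1 and 81.5 TPM at night, with a difference of 0.975 ± 0.22 and an adjusted p of 0.0604. Of 16 genes on the endoplasmic reticulum chaperone list 13 lay above 0. The 1 called was Ddit3, which encodes a transcription factor and not a chaperone. The 3 cold-inducible RNA-binding protein genes lay below 0 with a median of -0.279, none called. Of 9 immediate early genes Nr4a1, an orphan nuclear receptor, had the lowest adjusted p, 0.0767, with a difference of -0.62 ± 0.16 and a peak at 8.2 h.

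Genes of the oxygen response were not called between day and night, like nearly all genes tested. Of 8 tested genes for oxygen sensors and HIF subunits 0 were called, with a median of 0.004, and Hif1a, the inducible subunit, differed by -0.075 ± 0.086. Egln3, which encodes the prolyl hydroxylase PHD3, passed the cosine test with a peak at 23.6 h, and Vhl, part of the ligase that removes HIF subunits, with a peak at 18.4 h; its day and night difference was 0.25 ± 0.072 with an adjusted p of 0.125. Of 13 HIF target genes 0 were called, with a median of 0.007, and P4ha1, a collagen prolyl hydroxylase, was the 1 that passed the cosine test, peaking at 21.7 h. Among all genes tested 8.31% passed the cosine test.

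Among structural genes of muscle Mybpc2 alone was called. All 12 fast fibre genes lay below 0 with a median of -0.135, beside 0.006 over all genes; the lowest sum of 7 muscle genes, 55980 TPM, was that of the night library that stood apart. Of 8 slow fibre genes 7 lay above 0 with a median of 0.47, but they varied widely between mice: the difference of Myh7 was 0.57 ± 0.60 with an adjusted p of 0.762, and 0 of 8 were called. Casq2 went the other way, at -0.32 ± 0.18 with an adjusted p of 0.503. It was the 1 slow fibre gene that passed the cosine test, with an adjusted p of 0.0145 and a peak at 2.3 h. All 12 collagen genes lay below 0 with a median of -0.267, 0 called, and Col15a1 had the lowest adjusted p, 0.372. Of 6 myogenic factors 2 passed the cosine test, Myod1 among them. Of 14 protein breakdown genes 0 were called, and Fbxo32, the ubiquitin ligase atrogin-1, passed the cosine test with a peak at 0.6 h and values of 88.0, 43.6 and 16.52 TPM in the 3 mice of 19:30. Among 13 growth signalling genes Irs2 was called and 5 passed the cosine test. For all genes tested these shares were 0.300% called and 8.31% past the cosine test. None of the genes on the lists for clock kinases, mitochondrial regulators, Z-disc and stress sensing, excitation and neuromuscular junction, NAD metabolism, polyamine and amino acid metabolism and cell cycle control was called between day and night, and their medians lay between -0.18 and 0.03.

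**Figure D3:**
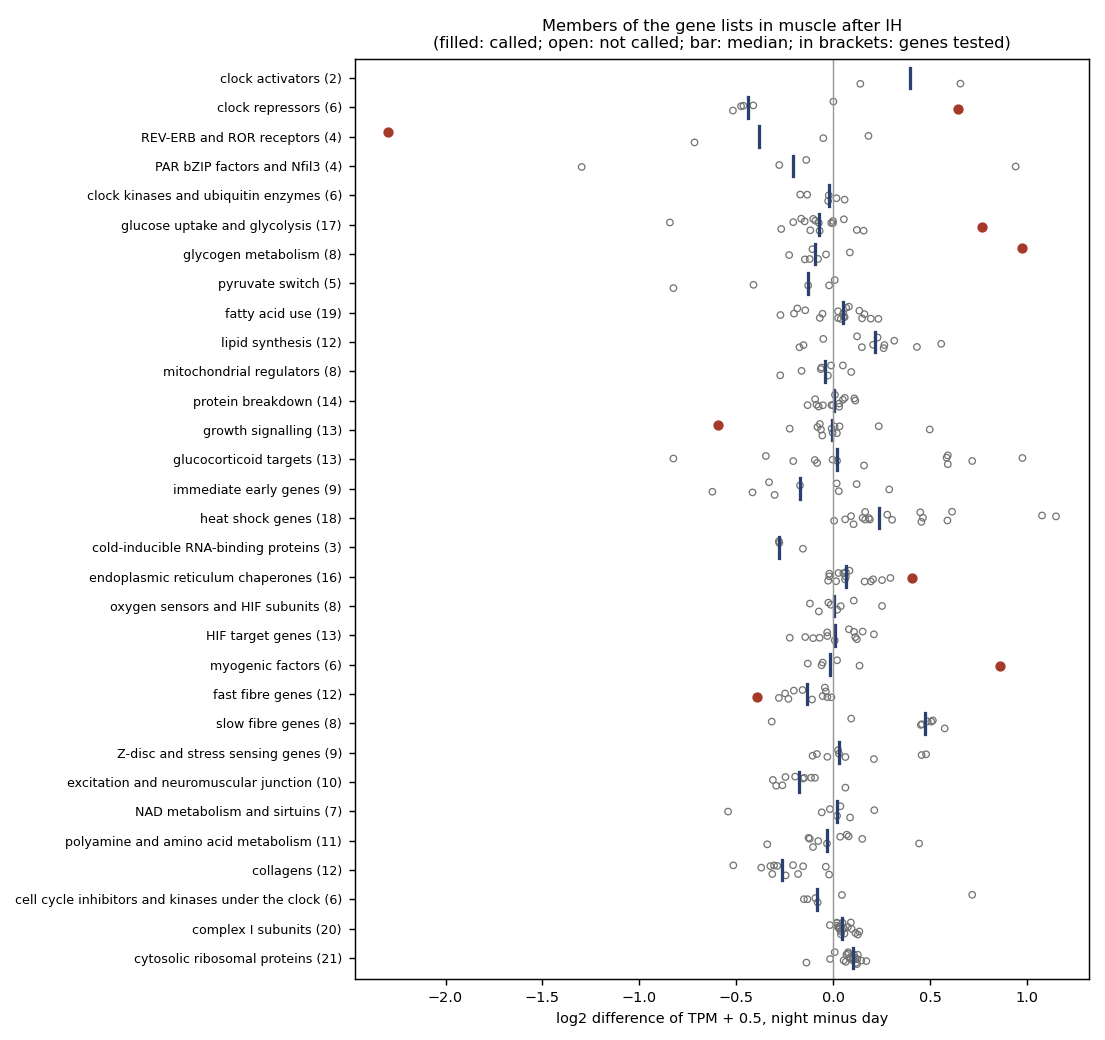
Differences between night and day of the members of 31 gene lists in muscle after IH, on the log2(TPM + 0.5) scale, with filled points for called genes, open points for the others and a bar at the median of each list. Each of the 8 lists with a called gene has 1 such gene, and the 18 heat shock genes lie above 0 while the 12 collagens and 12 fast fibre genes lie below it.

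A 24-hour rhythm with a peak near a boundary between the groups largely cancels in the day and night difference. That few or none of such genes are called follows from how the groups were set. Of the 748 genes that passed the cosine test, 401 peaked within 3 hours of 0 h or 12 h, windows that cover 12 of the 24 hours, and 0 of these were called between day and night. All 27 genes called also passed the cosine test, with peaks from 3 to 9 h in 10 of them and from 15 to 21 h in 17. Both tests used the same libraries, so neither is separate support for the other. An amplitude of at least 0.585 on the log2 scale, a 1.5-fold change from the mean, was reached by 65 genes. The 6 with the largest amplitude that were not called were Dbp, Arntl, Plac8, Per3, Per1 and Angptl7. Plac8, expressed in immune and fat cells, peaked at 15.3 h with an amplitude of 1.34 ± 0.20, with 56.2 TPM in the library that stood apart against 1.54 to 17.2 TPM by day. Angptl7, a secreted angiopoietin-like protein, peaked at 14.3 h with 1.07 ± 0.20, and its level went from 7.36 ± 2.31 TPM at 1:30 to 53.9 ± 37.6 TPM at 10:30. The count of genes with a cosine was 193, 234 and 354 without replicate 1, 2 and 3, and 466, 405, 471 and 452 without 1:30, 4:30, 10:30 and 16:30.

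**Figure D4:**
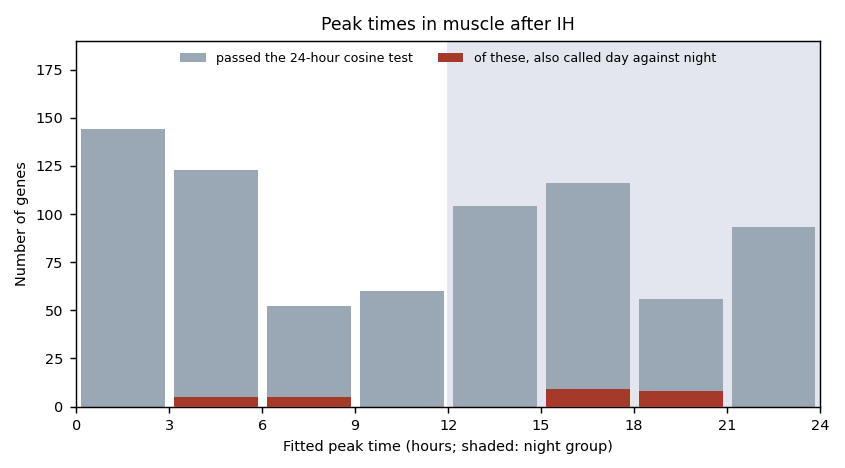
Number of genes that passed the 24-hour cosine test in muscle after IH, by fitted peak time in windows of 3 hours, with those also called between day and night in red and the night group shaded. The windows from 0 to 3 h and from 15 to 18 h hold 144 and 116 genes, and the called genes fall in 4 windows, with 5 each from 3 to 6 h and 6 to 9 h, 9 from 15 to 18 h and 8 from 18 to 21 h.

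The same comparison in normoxia showed how far the differences were those of unexposed muscle. There 76 of the 9000 genes, 0.844%, were called, 46 higher at night and 30 by day, and 194 with the replicate number as a block. Of the 27 genes called after IH, 27 had the same direction in normoxia, 24 also with an unadjusted p of 0.05 or less, and 14 were called in both, which is 51.85% of those called after IH and 18.42% of those called in normoxia. Of the 76 genes called in normoxia, 74 had the same direction after IH. Beside these counts, 921 of all 9000 genes (10.23%) were at an unadjusted p of 0.05 or less in normoxia, in either direction. The share of all genes with the same direction in both treatments was not counted. In replicate 2 of 1:30 in normoxia the gene Gm19220 alone held 319921 TPM. The most abundant gene of any other muscle library reached at most 42859 TPM. The part of this library on its own in the normoxia values was not tested. Nr1d1 differed by -2.35 ± 0.205 in normoxia and -2.30 ± 0.29 after IH, Cry1 by 0.68 ± 0.088 and 0.64 ± 0.11, Ppp1r3c by 1.06 ± 0.18 and 0.97 ± 0.19 and Tbc1d1 by 0.73 ± 0.10 and 0.77 ± 0.11. The normoxia count was 13, 13 and 32 without replicate 1, 2 and 3, and without one time point it ran from 22 without 4:30, 24 without 7:30, 30 without 16:30, 41 without 19:30 and 49 without 13:30 to 191 without 1:30.

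No gene was shown to have a day and night difference that differed between the treatments. In the test of the difference itself, 0 of 9000 genes (0%) passed in limma, the lowest adjusted p was 0.9998, and 190 genes were at 0.05 or less before adjustment, with 0 called also when cosine terms in place of day and night were crossed with treatment. Among the 89 genes called in either treatment, 9 were at an unadjusted p of 0.05 or less in this test, beside 2.111% of all genes. The 89 were chosen by a large difference in 1 treatment in the same libraries, which favours a low p here. Their count is therefore no result about them. Angptl8 was at 1.21, 21.2 and 41.5 TPM at night in normoxia and 1.96, 4.71 and 18.0 TPM by day. Its difference was 1.48 ± 0.455 there with an adjusted p of 0.148, against 2.30 ± 0.41 after IH, and the unadjusted p of the difference between treatments was 0.203. G0s2 differed by 0.87 ± 0.22 in normoxia with an adjusted p of 0.0521 and 1.38 ± 0.19 after IH, with an unadjusted p of 0.0979 for the difference.

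Reps1 had the lowest unadjusted p of the 27 genes in that test, 0.00648, with differences of -0.08 ± 0.041 in normoxia and -0.25 ± 0.048 after IH. The genes with the lowest values of all were Enah, which promotes actin growth, Fkbpl, Ntng2, Gtf2a1, Nucks1 and Pld2, with unadjusted p from 0.000486 for Enah to 0.00324 for Pld2. Enah differed by 0.215 ± 0.046 in normoxia and -0.09 ± 0.069 after IH. Of these 6 genes 0 were called after IH, and with an adjusted p near 1 none was shown to differ between the treatments.

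**Figure D5:**
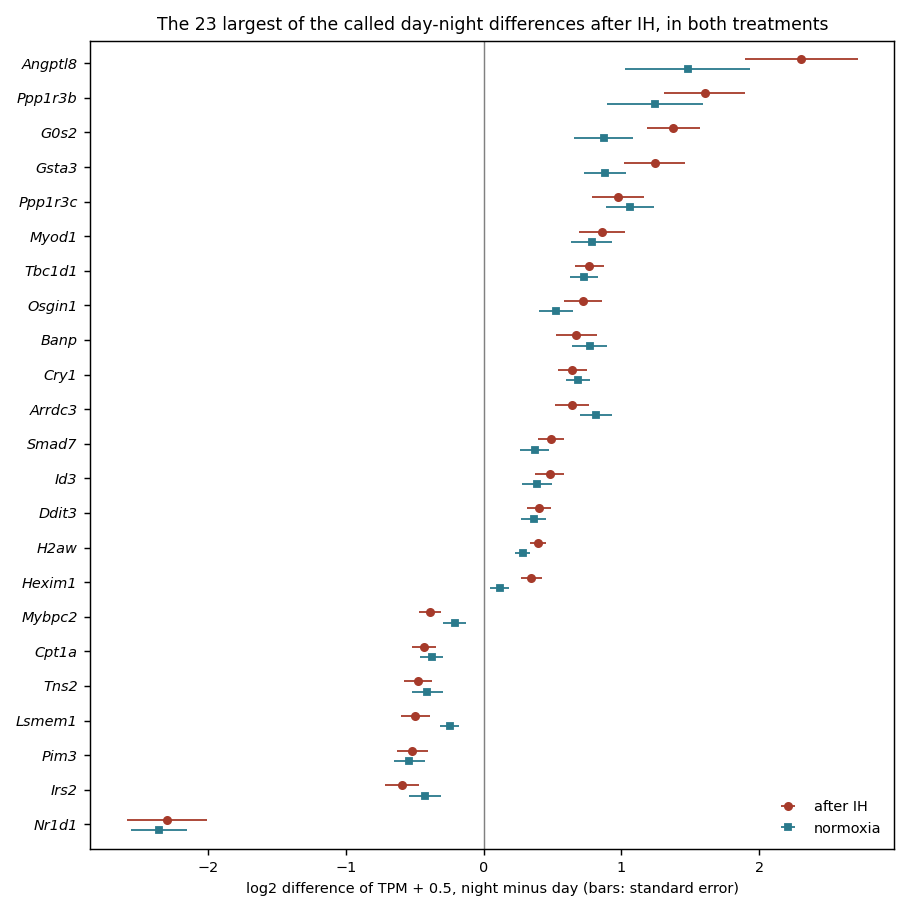
Differences between night and day, on the log2(TPM + 0.5) scale with standard errors, of the 23 genes with the largest differences among the 27 called after IH, for the 24 libraries after IH and the 24 in normoxia. All 23 lie on the same side of 0 in both treatments, from -2.30 after IH and -2.35 in normoxia for Nr1d1 to 2.30 and 1.48 for Angptl8.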

How the data were processed

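Poly(A) RNA of muscle was sequenced from strand-specific libraries. The authors quantified reads with Kallisto against Ensembl release 102 of the mouse (mm10) and summed transcripts to genes; whether the strand was used in counting is not given in the sources used here. The deposited values are TPM of 35904 genes, each library summing to between 997405 and 998567 TPM after IH. TPM does not hold the depth of a library, so no depth per library, and no counting error of low values, is given here.

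TPM was scaled by the median of ratios and taken as log2(TPM + 0.5), a scale that understates the change of low genes. Genes needed a mean of 5 TPM over the 24 IH libraries. Day (12 libraries) and night (12) were compared with limma 3.58.1 (R 4.3.3, empirical Bayes with an intensity trend, 2-sided), per treatment and as the difference between treatments, and 24-hour cosines were fitted in the same way. A gene was called at a Benjamini-Hochberg adjusted p of 0.05. Tables and figures were made with Python 3.11.15, pandas 2.3.3, numpy 2.4.6 and matplotlib 3.10.9, and the fits were tested on simulated data. Promoters and positions came from RefSeq (GRCm38.p6), overlaps from GENCODE release M21. Differences between the 4 times of a group enter its spread.

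Genes named were all clock list members, the 10 largest called differences in each direction, up to 4 called members of each other list (or its member of lowest p), the 6 largest amplitudes not called and the 6 lowest p for the difference between treatments; 2 genes of this rule are not reported here. Members and lists were chosen with earlier results of these data known. The labels number the 3 mice of each time point. Same-numbered day and night mice deviated together, with correlations of 0.408, 0.56 and 0.772 after IH and 0.739, 0.319 and 0.802 in normoxia, although day replicate 2 in normoxia correlated more with night replicate 1 (0.468) than with its own number; every same-numbered pair was above 0.1, so the number was used as a block in an alternative fit; the labels do not say what it stands for. Other alternatives were TPM as deposited, pseudocounts of 0.1 and 1, minimums of 1, 10 and no TPM, no intensity trend, time-point means, a rank test, leaving out replicates or time points and, added after the data had been seen, leaving out the library that stood apart.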

Additional observations from a re-analysis of the deposited data

How the results depend on the processing

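The 27 genes called between day and night after IH became 17 with TPM as deposited (13 higher at night and 4 by day), 9 with no minimum, 10 by the rank test and 173 when the error was taken within time points alone, and 0 to 98 when a replicate or a time point was left out. The 748 genes with a cosine became 329 with TPM as deposited and 193 to 934 when replicates or time points were left out. In normoxia 76 genes became 37 with TPM as deposited (34 and 3, against 46 and 30), 37 with no minimum, 44 at 10 TPM, 194 with the replicate block, 123 with time-point means and 13 to 191 when replicates or time points were left out. Scaling moved the median of all genes in normoxia from 0.075 as deposited to -0.013. The part in these changes of the normoxia library with 319921 TPM of Gm19220 was not tested. The difference between treatments stayed at 0 genes in every alternative, with 108 to 1112 genes at an unadjusted p of 0.05 or less. The replicate block gave 34 genes after IH and 998 with a cosine, and beyond Id3 and Banp it changed no call among the 27. Over the 27 genes, 589 differences were recomputed: 0 changed sign, 372 stayed past the threshold and 217 did not. Among named genes that were not called, the sign changed when a replicate or time point was left out for Clock (-0.044 to 0.304), Rora (-0.169 to 0.028), Hlf (-0.402 to 0.067), Fkbpl (-0.015 to 0.129) and Nucks1 (-0.004 to 0.247); the causes were not tested. The depth of each library was not analysed here, and each time point has 3 mice, which limits what differences between neighbouring times can show.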
